A study of Mus musculus with 2 samples.

Results

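The 8 genes described here act in the handling of sterols and of the lipids made alongside them. They are the cholesterol exporters Abca1 and Abcg1, the cholesterol synthesis enzymes Hmgcs1, Sqle and Idi1, the sterol-sensing regulators Insig1 and Srebf2, and the fatty acid desaturase Scd2. They were taken by symbol from the 15121 gene rows of the deposited expression matrix, and all 8 were present. Because the genes were picked with their treated and untreated values in view, their differences between the libraries are given as a description, without a test. The data are single-cell transcriptomes made with a 3′ kit from cells labelled as T cells, taken on day 5 from a mouse melanoma model called NILER. That model carries mutated Nras (Nras Q61R), comes from the syngeneic NIL line, and was exposed to ultraviolet light so that it carries a mutational burden. Both groups share this tumour background and the same day, and they differ by label in treatment. One library is untreated, and the other comes from treatment with Trametinib, an inhibitor of the kinase MEK, together with BGB-283, an inhibitor of RAF kinases. Each group is 1 library, the number of animals behind it is not given in the labels, and treatment and library preparation cannot be told apart.

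Cells keep membrane cholesterol within a narrow range by matching synthesis and uptake against export. When sterols are scarce in the endoplasmic reticulum, Scap carries the transcription factor SREBP-2, the product of Srebf2, to the Golgi for activation, and synthesis genes such as Hmgcs1, Idi1 and Sqle are transcribed; when sterols are plentiful, Insig1 holds the Scap complex back. Oxysterols activate the nuclear receptors LXRα and LXRβ (Nr1h3 and Nr1h2), which induce Abca1 and Abcg1. In T cells, sterol synthesis is known to accompany activation and division and LXR signalling is known to restrain division, while in macrophages both exporters clear cholesterol taken up from debris.

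The label "T cells" held for most cells: among the cells that passed the filters, 92.3% of 8696 untreated and 92.6% of 7344 treated cells had a unique molecular identifier (UMI, a tag that counts each captured transcript once) of Cd3e, Cd3d, Cd3g or Trac. The remainder included dendritic cells and macrophages, recognised by their own markers. Cells were assigned to 5 gates by their UMIs. The CD8 gate (Cd8a or Cd8b1, no Cd4 and no Foxp3) held 4622 untreated and 4955 treated cells, the CD4 gate 988 and 499, and the Foxp3-positive gate, which marks regulatory T cells, 553 and 437. The dendritic gate held 332 and 153 cells and the macrophage gate 153 and 129. Median depth in the gates ran from 4261 UMIs per cell in untreated CD4 cells to 11557.5 in untreated dendritic cells. In the treated library 63 of the 153 cells of the dendritic gate carried 2 or more B cell markers, such as Cd79a, Cd79b and Ms4a1, against 5 of 332 in the untreated library, so values of the 8 genes in the dendritic gate are given with and without cells of other types. The median depth of this gate was 11557.5 and 6094 UMIs, and 11630 and 10638 without those cells. Levels below are counts of a gene's UMIs scaled to a common total of the gate (CPM), which compare 1 gene between gates and libraries but not different genes. Intervals are exact at the 95% level and cover counting error only, not variation between animals or libraries. In a gate, fewer transcripts per cell and a different mixture of cell states cannot be told apart unless the states are split, as is done for CD8 cells further on.

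Promoter windows around the annotated start were in the RefSeq table (GRCm38.p6) for 5 of the 8 genes, without Abcg1, Scd2 and Sqle. Shown here are 1 exporter, both synthesis enzymes with a window and the feedback regulator, because these genes separate from each other in the values that follow. Sequences read 5′ to 3′ on the gene's strand, and capitals mark a match to the sterol regulatory element TCACNCCAC, to the E-box CACGTG that SREBP proteins can also bind, or to the CCAAT box (CCAAT, or ATTGG on the opposite strand) bound by NF-Y, a partner of SREBP proteins.
Abca1, chr4:53159846-53160145, minus strand: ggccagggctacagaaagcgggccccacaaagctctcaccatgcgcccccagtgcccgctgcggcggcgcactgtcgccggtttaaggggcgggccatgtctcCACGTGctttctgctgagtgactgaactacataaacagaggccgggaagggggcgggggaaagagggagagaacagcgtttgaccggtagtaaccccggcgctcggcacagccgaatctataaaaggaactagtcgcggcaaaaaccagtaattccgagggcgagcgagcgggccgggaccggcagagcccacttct
Hmgcs1, chr13:119690101-119690400, plus strand: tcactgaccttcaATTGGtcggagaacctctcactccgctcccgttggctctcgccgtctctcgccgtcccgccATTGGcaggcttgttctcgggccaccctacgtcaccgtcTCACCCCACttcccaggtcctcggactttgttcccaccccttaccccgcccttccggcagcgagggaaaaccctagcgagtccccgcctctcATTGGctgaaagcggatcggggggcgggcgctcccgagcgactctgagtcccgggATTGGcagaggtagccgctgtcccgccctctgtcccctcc
Idi1, chr13:8885356-8885655, plus strand: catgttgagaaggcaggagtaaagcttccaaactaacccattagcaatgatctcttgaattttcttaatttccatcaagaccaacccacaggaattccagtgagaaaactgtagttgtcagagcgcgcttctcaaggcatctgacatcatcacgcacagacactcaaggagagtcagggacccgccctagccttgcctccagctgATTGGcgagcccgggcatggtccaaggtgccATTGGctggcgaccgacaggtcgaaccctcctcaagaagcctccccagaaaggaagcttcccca
Insig1, chr5:28071162-28071461, plus strand: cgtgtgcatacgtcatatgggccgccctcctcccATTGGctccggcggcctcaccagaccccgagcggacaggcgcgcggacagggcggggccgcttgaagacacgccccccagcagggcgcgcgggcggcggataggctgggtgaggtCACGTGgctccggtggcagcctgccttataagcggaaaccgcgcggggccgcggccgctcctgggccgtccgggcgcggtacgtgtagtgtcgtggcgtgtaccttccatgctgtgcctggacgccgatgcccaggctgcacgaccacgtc
The Hmgcs1 window held the sterol regulatory element at -136 to -128 from the start, and 1.235% of all 32544 windows held a match on either strand. An E-box lay at -146 to -141 in Abca1 and at -100 to -95 in Insig1, and 7.166% of windows held one. CCAAT boxes were in the windows of Hmgcs1 (4 matches), Idi1 (2 matches), Insig1 and Srebf2, and in 37.359% of all windows. The LXR element is a direct repeat with 4 spacer bases known as DR4. The pattern searched for it matched none of the 5 windows and 0.234% of all windows. The Abca1 window held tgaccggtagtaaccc, a looser repeat with 4 spacer bases that this pattern missed. The lack of a match therefore does not show that the element is absent. A shorter form of the sterol regulatory element, TCACCCCA, was searched after these windows had been read. It was in Hmgcs1 (where it overlaps the longer element) and at -161 to -154 in Srebf2, against 1.567% of windows. These are matches of letters within short windows and are no evidence of binding.

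Abca1, which loads cholesterol onto lipid-poor apolipoprotein A-I, was at a higher level in the treated library in all 5 gates. In CD8 cells its level was 9.78 CPM untreated (434 UMIs) and 30.6 CPM treated (1112 UMIs), a ratio of 3.12-fold (interval 2.79 to 3.50). Macrophages held the highest level in each library, at 72.4 CPM untreated and 476 CPM treated, or 6.58-fold (5.47 to 7.95). In dendritic cells the level was 1.05 CPM untreated and 41.7 CPM treated, from 5 and 58 UMIs, or 39.9-fold (16.1 to 127). That ratio rests on the near absence of the transcript in the untreated dendritic gate, the lowest level of Abca1 in any gate; without cells of other types the levels were 1.09 and 29.5 CPM, or 27.1-fold (10.4 to 89.8). Of the 29 treated UMIs behind the latter, 1 cell held 12, and after thinning to 2000 UMIs per cell 0.313% of untreated and 1.24% of treated cells had one. With stricter gates the log2 ratio of the dendritic gate was 3.89, against 5.32 as reported. CD4 cells had 18.3 and 41.6 CPM (2.27-fold, 1.72 to 3.003), and Foxp3-positive cells had 10.8 and 39.1 CPM (3.62-fold, 2.59 to 5.11). In the untreated library the order was macrophage, CD4, Foxp3-positive, CD8 and dendritic, with overlapping intervals for the Foxp3-positive and CD8 gates. In the treated library the CD4, Foxp3-positive and dendritic gates, from 39.1 to 41.7 CPM, had overlapping intervals, and the dendritic interval also reached that of CD8 cells.

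The same direction appeared in the share of CD8 cells with an Abca1 UMI, which was 6.82% untreated and 16.0% treated. After every cell was thinned to 2000 UMIs, which leaves out 71 untreated and 85 treated cells, the shares were 2.31% and 5.65%. Free RNA in the droplets can give such UMIs to cells that do not express a gene. In the untreated library 0.904% of dendritic cells had an Abca1 UMI, and 0.306% after thinning. Median depth there was 11557.5 UMIs in dendritic and 6751 UMIs in CD8 cells. The part of free RNA in these shares was not tested in either library. Abca1 UMIs were concentrated: the 1% of CD8 cells with the most of them held 35.5% of its untreated and 23.3% of its treated UMIs.

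Abcg1, which passes cholesterol on to high-density lipoprotein particles, followed Abca1. Its level in CD8 cells was 28.3 CPM untreated (1256 UMIs) and 87.1 CPM treated (3170 UMIs), or 3.08-fold (2.88 to 3.29). The dendritic gate showed the widest gap, 19.7 against 221 CPM (11.2-fold, 8.88 to 14.3), and 19.6 against 236 CPM without cells of other types. Untreated dendritic cells thus had the lowest and treated dendritic cells the second highest Abcg1 level among the gates of their library. Macrophages had 78.2 and 306 CPM (3.92-fold, 3.25 to 4.75). CD4 cells had 37.8 and 87.9 CPM (2.32-fold, 1.92 to 2.81), and Foxp3-positive cells 33.9 and 113 CPM (3.33-fold, 2.76 to 4.04). In the treated library the CD8 and CD4 gates could not be separated by their intervals.

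Macrophage markers within the T cell gates were lower in the treated library. Abca1 in macrophages themselves stood at 72.4 CPM untreated and 476 CPM treated. The part of macrophage transcripts in the exporter levels of T cells was not tested. All 10 macrophage markers had UMIs in both libraries in each T cell gate, and their summed level was 1027 CPM untreated and 199 CPM treated in CD8 cells, 3176 and 420 in CD4 cells, and 2136 and 374 in Foxp3-positive cells. With every T cell that carried 2 or more of these markers left out, the log2 ratio of Abca1, treated over untreated, was 1.91 in CD8 cells, 2.48 in CD4 cells and 3.31 in Foxp3-positive cells, against 1.64, 1.18 and 1.86 with them. Those of Abcg1 were 1.68, 1.19 and 1.89, against 1.62, 1.22 and 1.74.

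**Figure D1:**
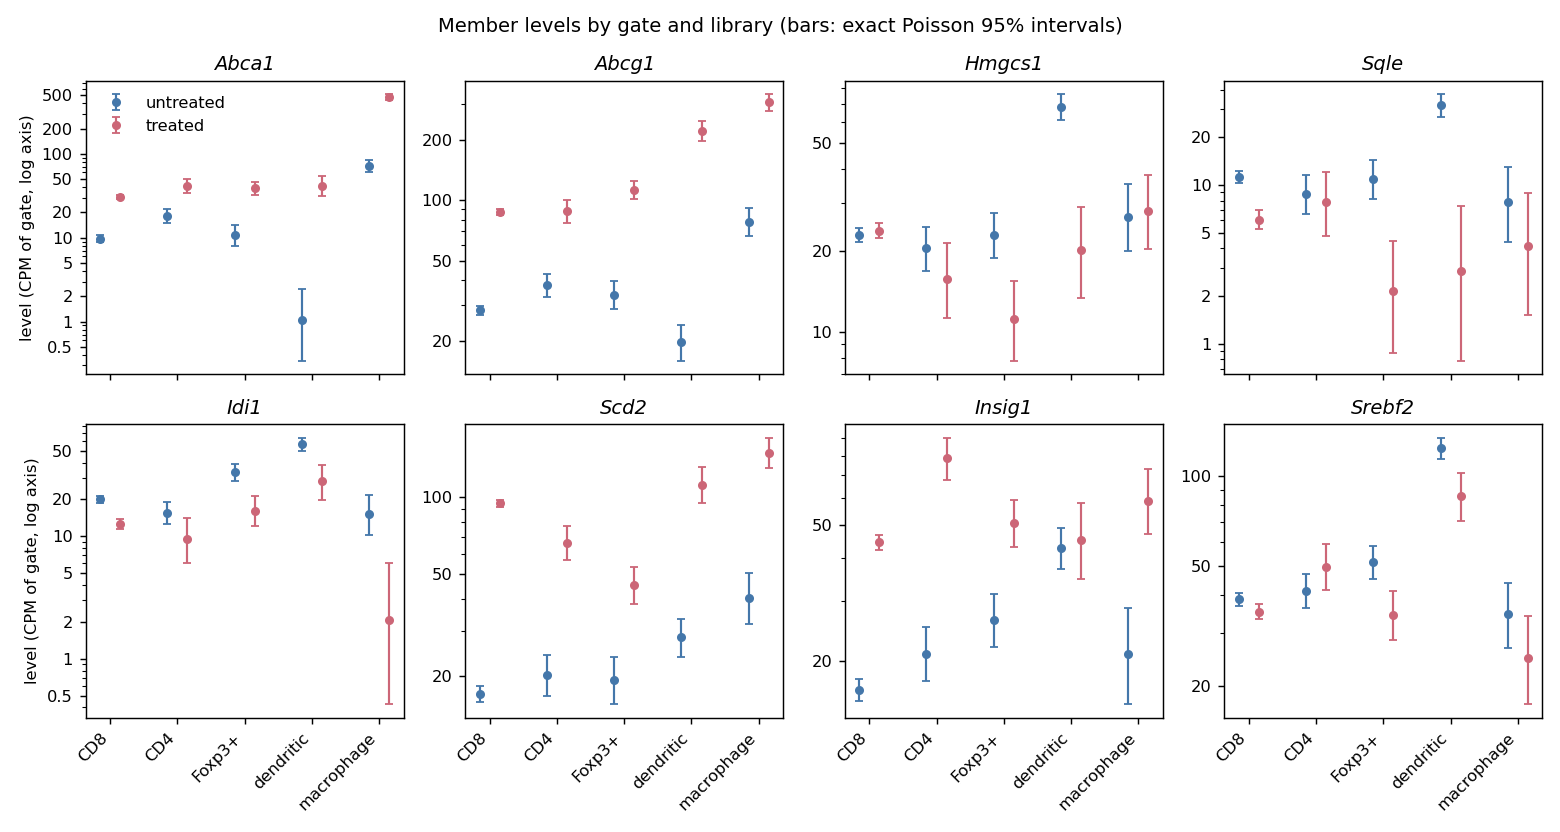
Level of each gene in the 5 gates, as CPM of the gate on a log axis, untreated (blue) and treated (red), 1 library each, with exact Poisson 95% intervals. Abca1, Abcg1 and Scd2 lie higher in the treated library in every gate, while Sqle and Idi1 lie lower, with overlapping intervals for Sqle in CD4 cells and macrophages and for Idi1 in CD4 cells.

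The 3 synthesis enzymes did not follow one another. Idi1, which isomerises isopentenyl diphosphate for the isoprenoid chain, was lower in the treated library in all 5 gates. Its level in CD8 cells was 20.01 CPM untreated and 12.7 CPM treated, or 1.58-fold lower (1.41 to 1.77). Foxp3-positive cells had 33.4 and 16.1 CPM (2.08-fold lower, 1.51 to 2.90), and dendritic cells had 56.5 and 28.1 CPM (2.02-fold lower, 1.44 to 2.90), or 57.8 and 37.6 CPM without cells of other types (1.54-fold lower, 1.09 to 2.23). CD4 cells had 15.5 and 9.42 CPM (1.65-fold lower, 1.04 to 2.71). Macrophages had 15.2 and 2.06 CPM, from 29 and only 3 UMIs (7.38-fold lower, 2.29 to 37.9).

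Sqle, the squalene epoxidase, was low everywhere except in untreated dendritic cells. There it reached 31.8 CPM (152 UMIs), against 2.88 CPM treated (4 UMIs), or 11.1-fold lower (4.23 to 41.1); without cells of other types the levels were 31.7 and 3.05 CPM. Foxp3-positive cells had 11.0 and 2.17 CPM, from 52 and 7 UMIs (5.07-fold lower, 2.30 to 13.2). In CD8 cells the levels were 11.3 and 6.07 CPM (1.86-fold lower, 1.58 to 2.18). The difference could not be resolved in CD4 cells, with 8.81 and 7.85 CPM (1.12-fold lower, 0.657 to 1.99), or in macrophages, with 7.87 and 4.12 CPM from 15 and 6 UMIs (1.91-fold lower, 0.700 to 6.01). The CD8 direction of Sqle and Idi1 depended on how cells were weighted: with each cell counted equally the log2 ratios were 0.064 and 0.12, and without cycling cells 0.29 and 0.39, all on the higher side.

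Hmgcs1, which makes HMG-CoA early in the pathway, differed by gate. In CD8 cells its level was 22.9 CPM untreated and 23.7 CPM treated, a ratio of 1.04-fold with an interval of 0.946 to 1.14 that leaves out changes of the size seen for the exporters. Macrophages had 26.8 and 28.2 CPM (1.05-fold, 0.681 to 1.62). In dendritic cells the level was 68.0 CPM untreated and 20.1 CPM treated (3.38-fold lower, 2.29 to 5.16), and 69.5 against 23.4 CPM without cells of other types. Foxp3-positive cells had 22.9 and 11.2 CPM (2.05-fold lower, 1.39 to 3.08). CD4 cells had 20.4 and 15.7 CPM, which their counts could not separate (1.30-fold lower, 0.900 to 1.91). Untreated dendritic cells held the highest level of Hmgcs1, Sqle and Idi1 among the gates of either library.

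Scd2, which introduces a double bond into saturated fatty acids, was the member with the largest ratio in CD8 cells. Its level there was 17.0 CPM untreated (756 UMIs) and 94.5 CPM treated (3440 UMIs), or 5.55-fold (5.13 to 6.01). Of CD8 cells thinned to 2000 UMIs, 2.62% untreated and 15.6% treated had a Scd2 UMI, against 11.3% and 39.0% before thinning. Macrophages had 40.4 and 149 CPM (3.69-fold, 2.83 to 4.85), and dendritic cells had 28.3 and 112 CPM (3.95-fold, 3.11 to 5.01), or 26.3 and 84.4 CPM without cells of other types (3.21-fold, 2.398 to 4.28). CD4 cells had 20.2 and 66.3 CPM (3.28-fold, 2.58 to 4.19), and Foxp3-positive cells had 19.3 and 45.3 CPM (2.35-fold, 1.80 to 3.09). The treated levels of the CD8, CD4 and Foxp3-positive gates were thus separated by their intervals, while the 3 untreated levels, from 17.0 to 20.2 CPM, overlapped. In the treated CD4 gate 1 cell held 36 of the 169 Scd2 UMIs. The 1% of CD4 cells with the most Scd2 UMIs held 59.8% of them untreated and 32.5% treated. Counting intervals do not cover such concentration, and the separation was not checked without that 1 cell.

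Insig1, which anchors the Scap complex and is itself a SREBP target, had levels of 16.5 CPM untreated and 44.6 CPM treated in CD8 cells (2.70-fold, 2.48 to 2.95). Its highest ratio was in CD4 cells, with 21.1 and 78.5 CPM (3.73-fold, 2.96 to 4.71). Macrophages had 21.0 and 59.1 CPM (2.82-fold, 1.91 to 4.21), and Foxp3-positive cells 26.5 and 50.8 CPM (1.92-fold, 1.51 to 2.45). Dendritic cells had 42.9 and 45.3 CPM, a ratio of 1.06-fold (0.783 to 1.41), or 43.9 and 51.9 CPM without cells of other types (1.18-fold, 0.852 to 1.61). The dendritic value of Insig1 depended on the processing: its log2 ratio was 0.079 as reported, -1.10 when cells were thinned to 2000 UMIs and 0.56 with at most 5% mitochondrial UMIs, and 8 of 12 alternatives kept its sign. Idi1, another gene known to be driven by SREBP proteins, was lower in all 5 gates, as given above, while Insig1 was at least 1.5-fold higher in 4 of them.

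Srebf2, the transcription factor gene at the head of the synthesis branch, stayed within 1.5-fold in all gates but the Foxp3-positive one, where it lay just past that ratio. CD8 cells had 38.8 CPM untreated and 35.3 CPM treated (1.10-fold lower, 1.02 to 1.18). Foxp3-positive cells had 51.7 and 34.4 CPM (1.501-fold lower, 1.19 to 1.90), and dendritic cells had 124 and 85.6 CPM (1.45-fold lower, 1.19 to 1.78), or 127 and 94.6 CPM without cells of other types (1.34-fold lower, 1.08 to 1.69). The dendritic level stood above that of every other gate in each library. In CD4 cells the levels were 41.5 and 49.8 CPM (1.202-fold, 0.962 to 1.497), and in macrophages 34.6 and 24.7 CPM (1.40-fold lower, 0.919 to 2.16), neither of which the counts could separate.

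**Figure D2:**
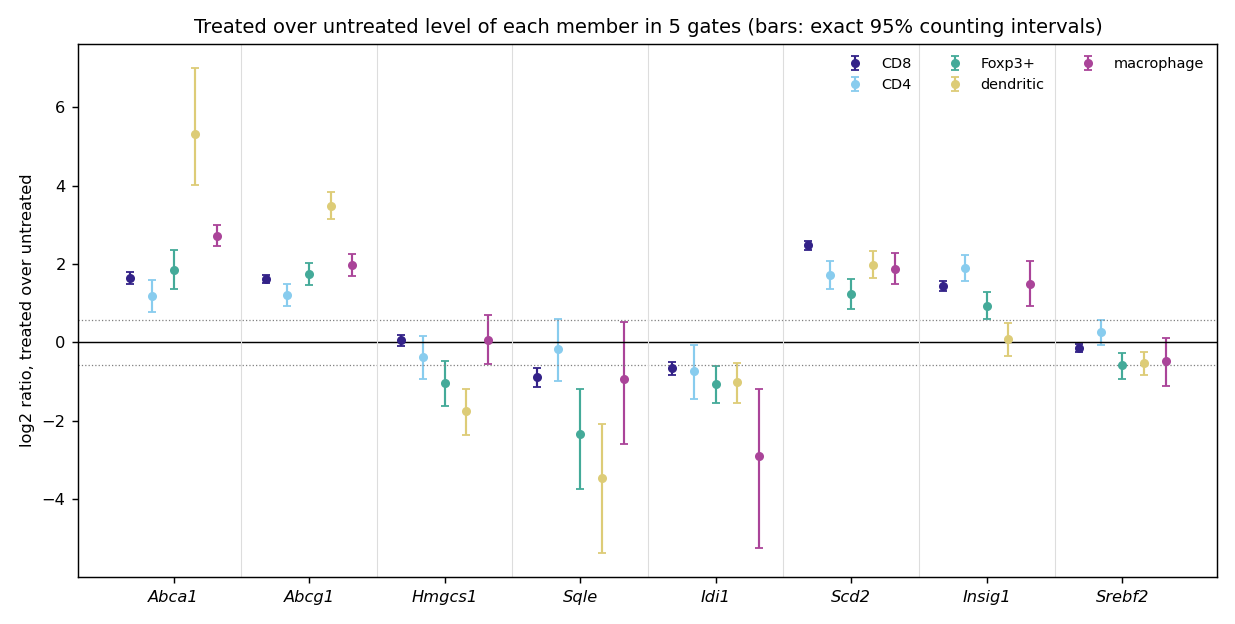
Treated over untreated level of each gene on a log2 scale, by gate, with exact 95% counting intervals; dotted lines mark a ratio of 1.5-fold in each direction. The exporters and Scd2 stand above the upper line in all 5 gates, and Insig1 in all but the dendritic gate.

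A ratio of at least 1.5-fold in either direction was used to count differences. In CD8 cells 4 of the 8 genes were higher and 2 lower by this rule, where 30.6% of the 5854 genes tested were higher and 15.8% lower. In CD4 cells 4 were higher and 1 lower (24.6% and 19.8% of 5937 genes), and in Foxp3-positive cells 4 were higher and 4 lower (16.7% and 12.9% of 5939 genes). The dendritic gate had 3 higher and 3 lower, with or without cells of other types (28.4% and 10.6% of 6101 genes, and 24.5% and 11.1% of 5787 genes without them). Macrophages had 4 higher and 2 lower (24.4% and 16% of 6423 genes). The members were chosen from these same contrasts, so nothing is read from the counts against the background. A minimum of 20 CPM in 1 library, applied to the genes tested, was met by 7 of the 8 in CD8 cells, 6 in CD4 cells, 7 in Foxp3-positive cells, 8 in dendritic cells and 6 in macrophages. The percentages cover only genes that met it. Among the members that met it, 4 were higher and 1 lower in CD8 cells, and 4 and 0 in CD4 cells. Foxp3-positive cells had 4 and 3, dendritic cells 3 and 3, and macrophages 4 and 0. The median log2 ratio over all genes tested was 0.16, 0.02, -0.02, 0.18 and 0.08 in the CD8, CD4, Foxp3-positive, dendritic and macrophage gates.

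Summing UMIs gives the balance between export and synthesis within each gate, a ratio that does not depend on how libraries are scaled. In CD8 cells the summed UMIs of Abca1 and Abcg1 over those of Hmgcs1, Sqle and Idi1 gave 0.703 untreated and 2.77 treated, so the treated ratio was 3.94-fold that of the untreated library (3.62 to 4.29; log2 1.98). Most of this came from the exporters, which stood at 38.1 and 118 CPM (3.09-fold), while the summed synthesis genes stood at 54.2 and 42.5 CPM (1.28-fold lower, 1.196 to 1.36). CD4 cells went from 1.26 to 3.93, or 3.13-fold (2.32 to 4.24). Foxp3-positive cells went from 0.664 to 5.16, or 7.77-fold (5.82 to 10.4), with a larger share from synthesis, which was 2.29-fold lower (1.81 to 2.91). Macrophages had the highest untreated ratio of the gates, at 3.02 against 22.8 treated, or 7.54-fold (5.16 to 11.1).

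Dendritic cells showed the widest gap of the 5 gates. Their ratio was 0.133 untreated, from 99 export and 747 synthesis UMIs, and 5.14 treated, from 365 and 71 UMIs, or 38.8-fold (27.6 to 54.7). Without cells of other types it was 0.130 and 4.14, or 31.9-fold (22.2 to 46.0). In these cells export transcripts were 12.9-fold higher (10.1 to 16.4) and synthesis transcripts 2.48-fold lower (1.92 to 3.27), so both sides contributed. The cells themselves also differed: without cells of other types, 19.4% of 325 untreated and 9.64% of 83 treated cells were cycling, and 194 and 23 of them had an Xcr1 or Clec9a UMI, markers of the cross-presenting subset. The part of this in the dendritic result was not tested as such, but values within subsets can be given. Among the Xcr1 or Clec9a cells the export over synthesis ratio was 0.127 and 6.20, or 49.0-fold (25.6 to 96.9). Cells with a Fscn1 UMI, a marker of the migratory mature state, gave 0.263 and 5.73, or 21.8-fold (11.9 to 40.3), from 55 and 32 cells. Cells with a Cd209a UMI, a marker of monocyte-like and type 2 dendritic cells, gave 0.0769 and 1.5, or 19.5-fold (6.43 to 69.3), from 37 and 22 cells. These subsets were drawn after the gate had been seen, and their intervals overlap one another.

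Within the subsets most export UMIs were of Abcg1. Among Xcr1 or Clec9a cells it stood at 14.7 CPM untreated and 217 CPM treated. Abca1 had 2 UMIs in each library, or 0.587 and 4.77 CPM, which the counts could not separate (8.13-fold, 0.589 to 112). Fscn1 cells had 65.8 and 382 CPM of Abcg1, and the treated ones also had 20 UMIs of Abca1, 12 of them in 1 cell, against 2 untreated. Srebf2 was lower in the treated Fscn1 cells, at 75.9 and 25.2 CPM from 45 and 7 UMIs (3.01-fold lower, 1.35 to 7.91). Their Insig1 levels of 38.8 and 14.4 CPM, from 23 and 4 UMIs, could not be separated by the counts (2.69-fold lower, 0.92 to 10.7). The cells with B markers within the treated dendritic gate had 127 CPM of Abca1, from 24 UMIs in 63 cells, which is 24 of the 58 Abca1 UMIs of the whole gate.

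**Figure D3:**
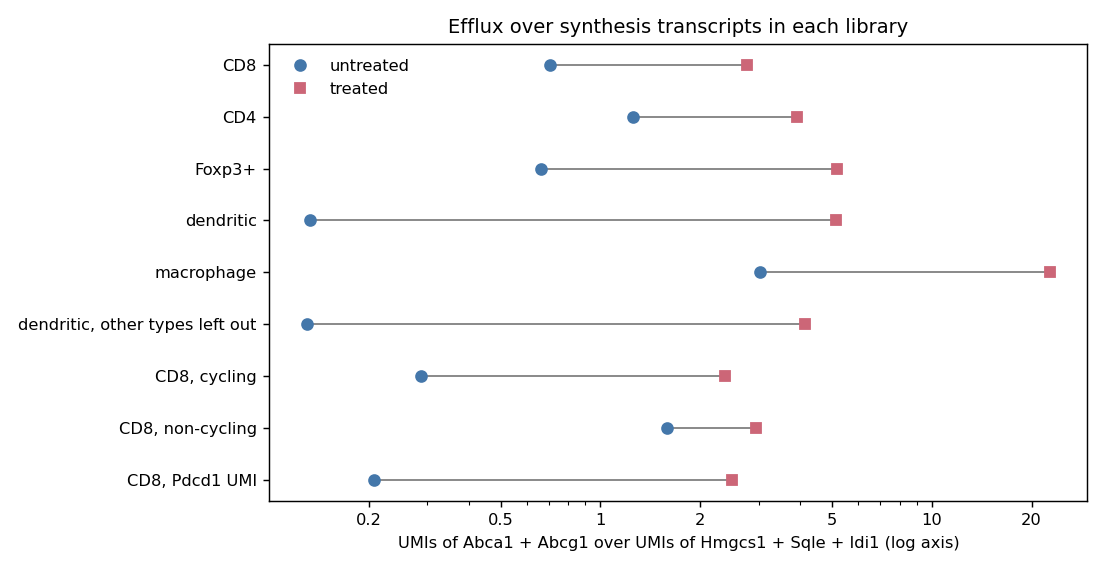
UMIs of Abca1 and Abcg1 over UMIs of Hmgcs1, Sqle and Idi1 in the 5 gates, in dendritic cells without cells of other types and in 3 subsets of CD8 cells, on a log axis, untreated (circles) and treated (squares), 1 library each. The treated library lies to the right in every line, with the longest distance of those plotted in the dendritic gate (0.133 and 5.14).

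CD8 cells in the libraries were in different states, and the members were therefore also read within states. A Pdcd1 UMI, for the activation and exhaustion receptor PD-1, was present in 28.2% of untreated and 65.5% of treated CD8 cells. Cycling cells, with a Mki67 or Top2a UMI, were 25.5% and 21.4% of CD8 cells but gave 45.7% and 29.5% of their UMIs. In cycling cells the export over synthesis ratio was 0.287 and 2.37, or 8.27-fold (7.10 to 9.63), and in non-cycling cells it was 1.59 and 2.94, or 1.85-fold (1.65 to 2.08). Exporters were higher in both: 4.37-fold (3.92 to 4.88) in cycling and 2.46-fold (2.30 to 2.63) in non-cycling cells.

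Synthesis transcripts differed in direction between these states. Their summed level was 80.7 CPM untreated and 42.6 CPM treated in cycling cells (1.89-fold lower, 1.71 to 2.10), and 31.9 and 42.4 CPM in non-cycling cells (1.33-fold higher, 1.21 to 1.46). Treated cycling and treated non-cycling cells were thus at nearly one level, whereas the untreated states were far apart. Idi1 had 31.9 and 11.6 CPM in cycling cells and 10.0 and 13.1 CPM in non-cycling cells. Sqle had 19.3 and 7.26 CPM in cycling cells, and 4.56 and 5.58 CPM in non-cycling cells, where its interval reached below 1 (1.22-fold, 0.947 to 1.58). Hmgcs1 had 29.5 and 23.7 CPM in cycling and 17.3 and 23.7 CPM in non-cycling cells. The difference between the states in these ratios was not tested. PD-1-positive cells were 528 of the 3443 untreated and 2388 of the 3896 treated non-cycling cells, and within them the summed synthesis level went the other way, at 50.1 and 43.04 CPM (1.16-fold lower, 1.01 to 1.34). In those cells Hmgcs1 stood at 23.5 and 23.2 CPM, Sqle at 9.53 and 6.28 CPM, and Idi1 at 17.0 and 13.6 CPM.

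The split by PD-1 gave a wider gap still. PD-1-positive CD8 cells, 1301 untreated and 3248 treated, had an export over synthesis ratio of 0.207 and 2.49, or 12.03-fold (10.4 to 13.9). Abca1 stood at 3.81 and 26.9 CPM there (7.06-fold, 5.57 to 9.06), and Abcg1 at 11.7 and 81.7 CPM (6.99-fold, 6.11 to 8.03). Of PD-1-positive cells 59.4% untreated and 26.5% treated were cycling, at a median depth of 12338 and 6938 UMIs, so both splits were combined after these values had been seen. In PD-1-positive cells 4 of the 8 genes were at least 1.5-fold higher and 2 lower (29.3% and 21.2% of all genes tested). Of the 7 members that met the 20 CPM minimum of the genes tested, 4 were higher and 1 lower. The export over synthesis ratio in PD-1-positive cycling cells was 13.4-fold that of the untreated library (11.1 to 16.3), and in PD-1-positive non-cycling cells 7.07-fold (5.49 to 9.14). The 8 genes split there as 4 higher and 2 lower (27.6% and 19.4% of all genes tested), and as 4 higher and 1 lower (30.7% and 16.9%). Among members that met the 20 CPM minimum, 4 of 7 were higher and 1 lower in the cycling cells. In the non-cycling cells 4 of 6 were higher and 0 lower.

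Insig1 and Scd2 were higher in the treated library in each of these subsets. Insig1 stood at 18.8 and 34.1 CPM in cycling cells (1.82-fold, 1.57 to 2.10), at 14.6 and 48.99 CPM in non-cycling cells (3.36-fold, 2.98 to 3.79), and at 16.7 and 37.4 CPM in PD-1-positive cells (2.23-fold, 1.97 to 2.54). Its intervals in cycling and non-cycling cells did not overlap, though the difference between the states was not tested. Scd2 stood at 19.8 and 107 CPM in cycling cells (5.40-fold, 4.81 to 6.06), at 14.7 and 89.4 CPM in non-cycling cells (6.07-fold, 5.43 to 6.81), and at 15.1 and 100.3 CPM in PD-1-positive cells (6.64-fold, 5.90 to 7.50). The 3 intervals of Scd2 overlapped.

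**Figure D4:**
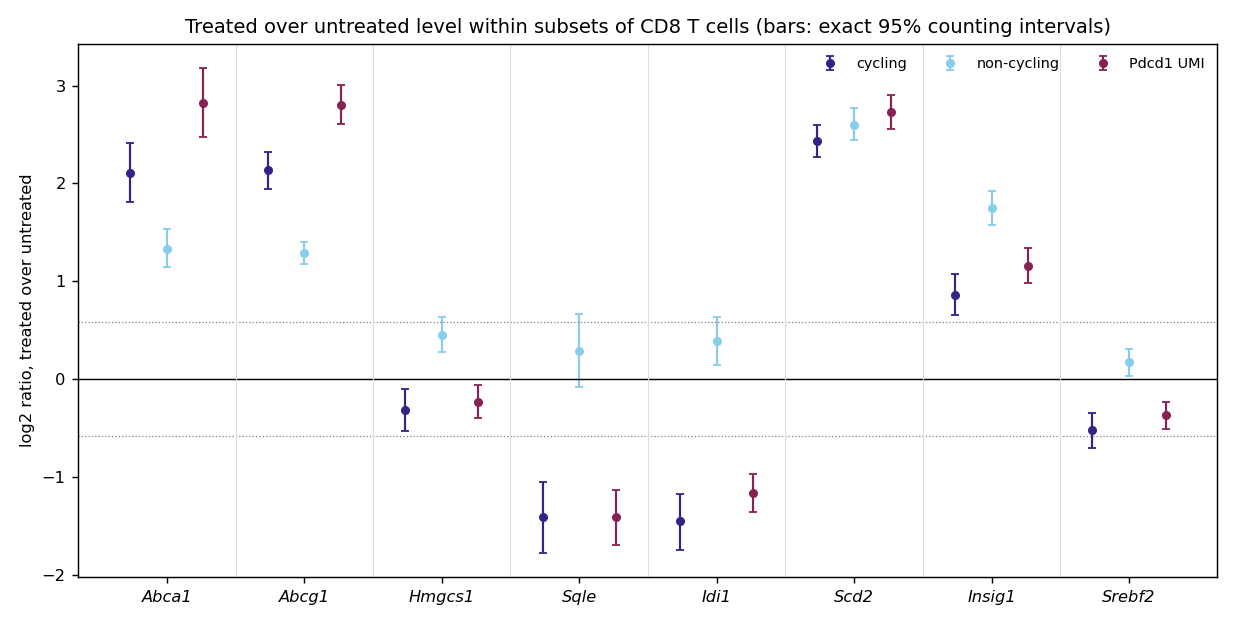
Treated over untreated level of each gene on a log2 scale within 3 overlapping subsets of CD8 cells, with exact 95% counting intervals; dotted lines mark 1.5-fold. Exporters and Scd2 are above the upper line in all 3 subsets, while Idi1 is below the lower line in cycling and PD-1-positive cells and above 0 in non-cycling cells.

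Within each library, CD8 cells were then split by whether they held an Abca1 UMI. In the untreated library the 315 cells with one had 60.1 CPM of Abcg1 (52.8 to 68.1), against 25.1 CPM (23.5 to 26.7) in the 4307 cells without, and 34.8 against 15.2 CPM of Scd2. Insig1 stood at 24.1 against 15.7 CPM. Idi1 was lower in the cells with an Abca1 UMI, at 14.1 against 20.6 CPM, and Hmgcs1 and Srebf2 had overlapping intervals. Median depth was similar (7319 and 6734 UMIs), while 30.8% of the cells with and 13.4% of those without an Abca1 UMI carried 2 or more macrophage markers, whose part in these levels was not tested. In the treated library the 791 cells with an Abca1 UMI had 111 CPM of Abcg1 against 81.7 CPM in the 4164 without, and 124 against 87.95 CPM of Scd2. Insig1 stood at 43.2 and 44.9 CPM there, with overlapping intervals. Idi1 could not be separated there either, at 10.4 CPM (8.08 to 13.1) against 13.2 CPM (11.9 to 14.6). Sqle had overlapping intervals in both libraries, at 7.79 against 11.6 CPM untreated and 6.66 against 5.94 CPM treated.

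Other genes of these pathways were read from 7 lists. Of the 20 cholesterol synthesis genes, 9 were tested in CD8 cells, of which 1 was higher and 4 were lower, with a median log2 ratio of -0.03. Of all genes tested there, 30.6% were higher and 15.8% lower. The list includes Hmgcs1, Sqle and Idi1, which were picked with their differences in view. Cyp51, the lanosterol demethylase, stood at 19.99 and 30.1 CPM (1.51-fold, 1.38 to 1.65). Fdps, which makes farnesyl diphosphate, stood at 28.3 and 12.2 CPM (2.31-fold lower, 2.08 to 2.59), and Pmvk, the phosphomevalonate kinase, at 34.2 and 21.4 CPM (1.60-fold lower, 1.47 to 1.75). In cycling CD8 cells 0 of 10 genes tested were higher and 5 lower (median -0.63), where 26.8% of all genes tested were higher and 17.2% lower, and in non-cycling cells 3 of 6 were higher and 0 lower (median 0.56; 35.2% and 13.3%). In PD-1-positive non-cycling cells 0 of 7 were higher and 2 lower (median -0.024; 30.7% and 16.9%).

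In dendritic cells the synthesis list pointed one way. Of 11 genes tested 0 were higher and 9 lower, with a median of -1.76, where 28.4% of all genes tested were higher and 10.6% lower. The lower genes include Hmgcs1, Sqle and Idi1, which were picked with their differences in view. Without cells of other types 0 of 11 were higher and 8 lower, with a median of -1.57. Of all genes tested there, 24.5% were higher and 11.1% lower, with a median of 0.12. Without those cells, Fdps stood at 107 and 15.2 CPM (7.02-fold lower, 4.22 to 12.6), and Cyp51 at 53.7 and 27.5 CPM (1.96-fold lower, 1.31 to 3.03). Pmvk stood at 110.4 and 109.8 CPM (1.01-fold lower, 0.815 to 1.25). In Foxp3-positive cells 0 of 10 were higher and 4 lower (median -0.50), against 16.7% and 12.9% of all genes tested. CD4 cells had 2 of 8 higher and 2 lower (median -0.28), near the 24.6% and 19.8% of all genes tested. Macrophages had 0 of 6 higher and 2 lower (median -0.20), against 24.4% and 16%.

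Of the 10 genes listed as LXR and its targets, 7 were tested in CD8 cells and 3 were higher (median 0.15), near the 30.6% and the median of 0.16 over all genes tested, and 2 of the 3 are the exporters, which were picked for their difference. The third besides the exporters was Mylip, a ubiquitin ligase, at 21.3 and 41.5 CPM (1.94-fold, 1.79 to 2.11). Apoe and Arl4c, the lowest of the 7 genes tested, stood at 297 and 251 CPM and at 143 and 125 CPM, within 1.5-fold. Apoe is abundant in macrophages, as given below, and the part of macrophage transcripts in its CD8 level was not tested. Nr1h2, which encodes LXRβ, stood at 49.5 and 54.8 CPM (1.11-fold, 1.04 to 1.18). Nr1h3, which encodes LXRα and is a macrophage gene, was below the CPM minimum in CD8 cells, with 146 and 10 UMIs. It was lower in the treated library, as the macrophage markers above were. The 2 exporters, picked for their difference, are also among the higher genes counted below in the macrophage, dendritic, CD4 and Foxp3-positive gates. In macrophages all 10 were tested, with 6 higher and 1 lower (median 1.03), where 24.4% and 16% of all genes tested were. Mylip stood at 27.8 and 153 CPM (5.51-fold, 4.07 to 7.58), Apoe at 6690 and 15920 CPM (2.38-fold, 2.33 to 2.43), and Nr1h3 at 50.9 and 22.7 CPM (2.24-fold lower, 1.498 to 3.44). Dendritic cells had 5 of 8 higher and 1 lower (28.4% and 10.6% of all genes tested), with a median of 1.37, or 1.23 without cells of other types; Arl4c stood there at 40.4 and 274 CPM (6.77-fold, 5.59 to 8.20). The medians were 0.17 in CD4 cells (3 of 8 higher and 1 lower, against 24.6% and 19.8%) and 0.63 in Foxp3-positive cells (4 of 8 higher and 1 lower, against 16.7% and 12.9%), and the latter was -0.034 with no CPM minimum.

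Fatty acid synthesis and desaturation genes were higher or within 1.5-fold in CD8 cells, with 3 of 5 tested higher and 0 lower (median 0.59), where 30.6% of all genes tested were higher and 15.8% lower. The list includes Scd2, which was chosen for its difference. The other higher genes were Fasn, the fatty acid synthase, at 23.3 and 48.8 CPM (2.09-fold, 1.94 to 2.26), and Elovl5, at 29.2 and 43.98 CPM. Acly and Elovl1 stood within 1.5-fold, at 43.0 and 60.4 CPM and at 43.9 and 41.7 CPM. Scd1, the relative of Scd2 that dominates in liver and fat, had only 47 and 80 UMIs in CD8 cells. In dendritic cells Scd1 stood at 3.35 and 109 CPM (32.4-fold, 19.3 to 58.2), and without cells of other types at 2.82 and 53.9 CPM (19.1-fold, 10.3 to 38.2). Of 6 genes tested, 4 were higher in CD4 cells (median 0.91), 3 in Foxp3-positive cells (0.59), 4 in dendritic cells (0.69) and 2 in macrophages (0.36), where 1 was lower. Of all genes tested, 24.6%, 16.7%, 28.4% and 24.4% were higher in these gates.

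The other 4 lists, for sterol sensing, uptake, storage and oxidation, were mixed, and their counts in CD8 cells stand against 30.6% higher and 15.8% lower of all genes tested. Sterol sensing includes Insig1 and Srebf2, which were picked with their values in view. In CD8 cells 2 of 4 sterol sensing genes tested were higher (median 0.48), namely Insig1 and Scap, the SREBP escort, at 15.9 and 24.1 CPM (1.52-fold, 1.37 to 1.68), while Mbtps1, the protease that releases SREBP proteins, stood at 26.2 and 33.8 CPM. Uptake and trafficking had 3 of 6 higher (median 0.37): Npc1, which exports cholesterol from lysosomes, stood at 19.8 and 39.1 CPM (1.98-fold, 1.82 to 2.15) and Osbp, which carries sterol to the Golgi, at 17.0 and 33.3 CPM (1.97-fold, 1.79 to 2.16), while Npc2 stood at 493 and 366 CPM and Fabp5 at 98.1 and 77.7 CPM. Storage had 2 of 6 higher and 1 lower (median -0.18). Dgat1, which makes triglyceride, stood at 54.7 and 208 CPM (3.81-fold, 3.64 to 3.99), and Hilpda, a lipid droplet protein, at 144 and 312 CPM (2.17-fold, 2.10 to 2.24). The droplet coat genes Plin3 and Plin2 stood at 21.7 and 10.6 CPM (2.06-fold lower) and at 47.1 and 35.02 CPM. Fatty acid oxidation had 1 of 8 higher and 0 lower (median -0.06), the 1 being Cpt1a, the entry step of fatty acids into mitochondria, at 12.8 and 29.0 CPM (2.27-fold, 2.05 to 2.52). Slc25a20, Acadvl and Acadl stood within 1.5-fold in that gate.

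In macrophages 7 of 10 uptake genes tested were higher and 1 lower (median 1.12), where 24.4% of all genes tested were higher and 16% lower, with a median of 0.075. Npc1 stood at 57.7 and 129 CPM (2.24-fold, 1.76 to 2.86), and Fabp5, a fatty acid carrier, at 322 and 1211 CPM (3.76-fold, 3.43 to 4.13). Srebf1 stood at 21.0 and 28.2 CPM (1.34-fold, 0.847 to 2.13). Marker genes show that the macrophage gate itself differed between the libraries: C1qa, a complement gene of resident macrophages, stood at 3558 and 1780 CPM, 28.8% of untreated and 6.20% of treated cells were cycling, and summed stromal markers stood at 336 and 1747 CPM. The stromal sum was concentrated in few cells. Col3a1 had a UMI in 5.88% of untreated and 4.65% of treated cells, Sparc in 12.4% and 7.75%, and Col1a1 in 1.31% and 1.55%. Without cells of other types, 142 and 116 cells remained and the export over synthesis ratio was 11.2-fold that of the untreated library (7.04 to 18.3).

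**Figure D5:**
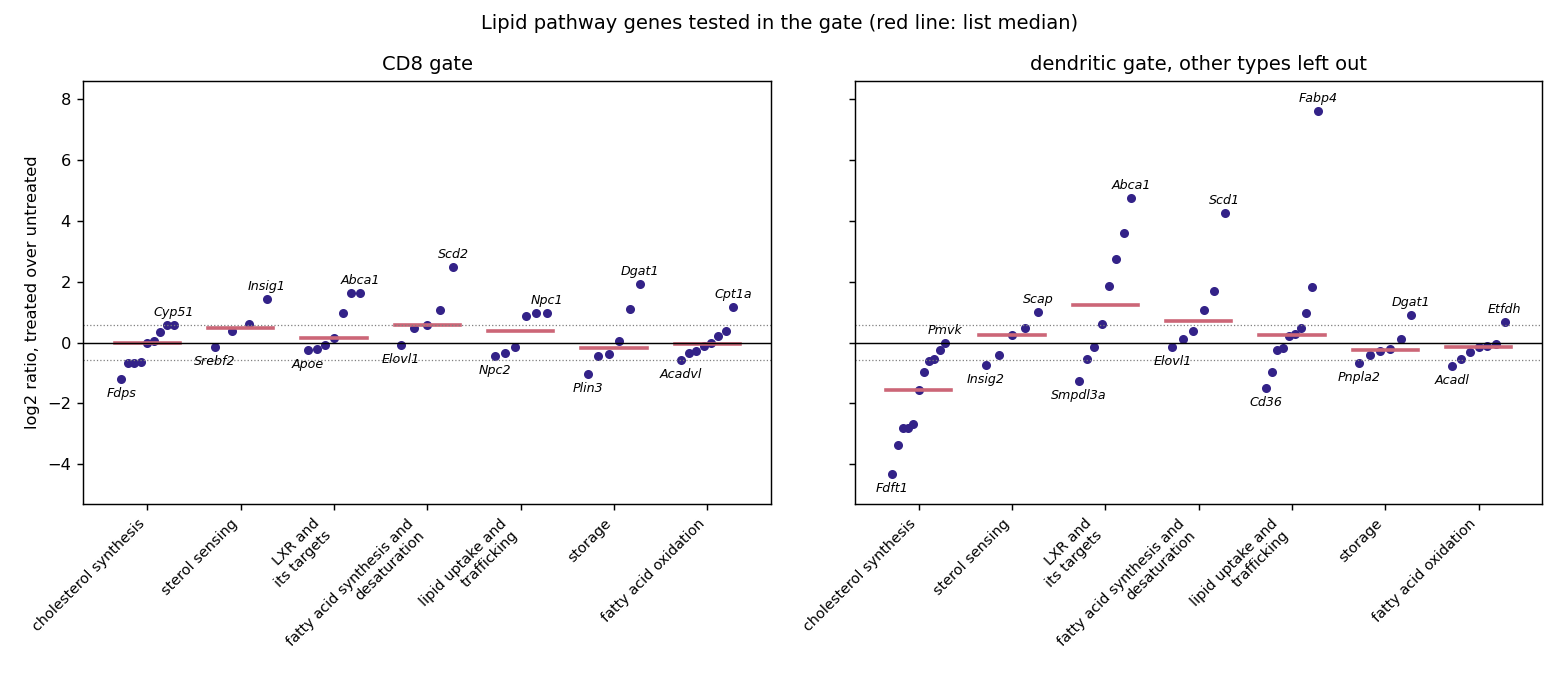
Log2 ratio, treated over untreated, of every list gene tested, in CD8 cells (left) and in dendritic cells without cells of other types (right); each point is 1 gene, red lines are list medians and dotted lines mark 1.5-fold. Cholesterol synthesis genes scatter around 0 in CD8 cells (median -0.03) and lie mostly below it in dendritic cells (median -1.57).

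Over the 10 levels given by 5 gates in 2 libraries, the genes whose log2(CPM + 1) profile was most like that of Abca1 among 7589 genes were Abl2, Tmem164 and Gadd45a, with Pearson's r of 0.96, 0.96 and 0.95. Those most like the summed synthesis enzymes were Abhd17a, Acadl and Ccdc12, with r of 0.98, 0.93 and 0.93. The 10 levels share libraries and gates and are not independent, so r is a description of likeness. Abl2, a kinase gene, ranged from 7.96 CPM in untreated dendritic cells to 56.3 CPM in treated macrophages, the gates where Abca1 was also lowest and highest.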

How the data were processed

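Per the submitters' processing notes, the tools were Cell Ranger and Seurat (versions not given in the sources used here) and the build GRCh38; symbols are mouse symbols, so no coordinates come from the matrix. The authors deposited the natural log of 1 plus UMIs per 10000 of each cell, for 15121 genes and 17390 cells (9312 untreated with 95349992 UMIs, 8078 treated with 58318786). UMIs were recovered by scaling each cell to its smallest value: 38204229 of 38204229 nonzero values were whole within 0.01. Libraries were told apart by the cell-name suffix, which matches the sample numbers and cell numbers in the labels, and 35 barcodes occur in both. No column of cells was left out.

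The cell filter asked for 200 genes or more and mitochondrial UMIs of 10% or less. The automatic Scrublet threshold marked 4 and 0 cells and was taken as not working, so cells above the top 5% of scores per library were removed (400 and 376). Dendritic and macrophage gates needed no UMI of Cd3e, Cd3d, Cd3g or Trac, at least 3 of their own 10 markers, and more of these than of the other. The dendritic markers were Flt3, Zbtb46, Xcr1, Clec9a, Cd209a, Fscn1, Ccr7, Itgax, H2-Aa and H2-Ab1, and the macrophage markers included C1qa, C1qb, C1qc, Adgre1, Csf1r, Lyz2, Fcgr1, Mrc1 and Cd68. Cells of other types were those with 2 or more detected markers of B cells, neutrophils or stroma; this step, the dendritic subsets, the joint CD8 subsets and TCACCCCA were added after values had been seen.

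UMIs were summed per gate and library. Intervals are exact (Poisson for levels, conditional binomial for ratios, conditional for ratios of ratios, Clopper-Pearson for shares) and cover counting error only. No test was run, since each group is 1 library. Genes tested had at least 20 CPM in 1 library, at least 10 UMIs in all and a UMI in each library. The last of these conditions alone was met by 13998 genes. Members and lists were chosen with earlier results of these data known. Named list genes are the 2 highest and 2 lowest of each list in CD8 cells by the interval bound nearest 1, with a fixed set that includes Srebf1, Nr1h2, Nr1h3, Scd1 and Mylip, and a few genes under this rule are not reported here. Elovl5 and C1qa were named outside that rule after their values were seen. Alternatives covered cell filters, gates, cycling cells, weighting of cells, thinning, scaling and the CPM minimum. The ratio step was tested on simulated counts. Scripts ran in Python 3.11.15 with scanpy 1.11.5 for Scrublet, scipy 1.17.1 for the intervals, numpy 2.4.6, and matplotlib 3.10.9 for figures.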

Additional observations from a re-analysis of the deposited data

Results flagged for a closer look

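In 3 cases a gene's ratio, treated over untreated, lay below 1 in one subset of CD8 cells and above 1 in another, with both counting intervals clear of 1. The difference between the subsets was not tested, since each has 1 library per group. Between cycling and non-cycling cells the log2 ratios differed by 0.77 for Hmgcs1, with ratios of 0.804-fold and 1.37-fold. For Idi1 they differed by 1.85, with 0.364-fold and 1.31-fold. For Srebf2 they differed by 0.70, with 0.696-fold and 1.13-fold. Within PD-1-positive non-cycling cells the ratios of Hmgcs1, Idi1 and Srebf2 were 0.983-fold, 0.801-fold and 0.834-fold. Sqle also lay on both sides, at 0.377-fold and 1.22-fold, but its interval in non-cycling cells reached below 1.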

How the results depend on the processing

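The export over synthesis ratio was on the treated side in all 60 alternative values, 12 per gate. Its log2 ratio ranged over them from 0.85 to 2.31 in CD8 cells (1.98 as reported), 0.37 to 1.85 in CD4 cells (1.65), 1.81 to 3.40 in Foxp3-positive cells (2.96), 3.92 to 6.48 in dendritic cells (5.28) and 1.504 to 4.38 in macrophages (2.91). Beyond the counting interval, it was 2.31 (CD8) and 4.74 (dendritic) at 5% mitochondrial UMIs, 1.85 (CD8) with stricter gates, 3.40 (Foxp3-positive) without T cells carrying macrophage markers, 0.89 (CD8) without cycling cells, and 3.49 (macrophages) without cells of other types. As a mean over cells it was 1.13 (CD8) and 5.95 (dendritic), and thinned to 2000 UMIs it was 1.11, 1.13, 2.52, 6.38 and 4.38 in CD8, CD4, Foxp3-positive, dendritic and macrophage cells. As a mean of gene ratios it was 2.13 (CD8), 6.48 (dendritic) and 3.59 (macrophages), and against all 6 other members 0.85, 0.37, 1.81, 3.92 and 1.504 in the same order of gates. Of 40 pairs of member and gate, 31 were past 1.5-fold and 28 of these kept their sign in every alternative, of which 23 also stayed past 1.5-fold. The other 5 came within 1.5-fold: Insig1 in macrophages (log2 0.43) and Idi1 in Foxp3-positive cells (-0.39) when thinned, Idi1 in CD4 cells as a mean over cells (-0.40), Idi1 in dendritic cells with stricter gates (-0.45) and at 5% mitochondrial UMIs (-0.55), and Srebf2 in Foxp3-positive cells, which lay at the limit, in 8 alternatives (nearest 0 at -0.47). Signs turned for Sqle and Idi1 in CD8 cells without cycling cells (0.29 and 0.39) and as a mean over cells (0.064 and 0.12), for Idi1 in CD8 cells when thinned (0.13) and as a difference of mean deposited values (0.0007 natural log units), for Sqle in macrophages as a mean over cells (0.59), and for the LXR list median in Foxp3-positive cells with no CPM minimum (-0.034); the cause was not tested. No paired analysis was possible because each group has 1 library. Depth limits Sqle and Idi1 in macrophages and treated dendritic cells, where 3 to 39 UMIs carry a value.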

Other observations

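Other lipid genes outside the named set stood far apart in single gates, chosen after their values were seen. In macrophages Cd36, a scavenger receptor for oxidised lipoproteins and fatty acids, stood at 23.1 CPM untreated and 163 CPM treated (7.06-fold, 5.10 to 9.97), and Soat1, which esterifies cholesterol for storage, at 117 and 205 CPM (1.75-fold, 1.47 to 2.09). Dendritic cells without cells of other types had the opposite order for Cd36, at 66.5 and 23.4 CPM (2.84-fold lower, 1.86 to 4.55). In those dendritic cells Lrp8, a receptor of lipoproteins, stood at 22.6 and 80.3 CPM (3.56-fold, 2.62 to 4.81). Fabp4, a fatty acid carrier, had 1 untreated and 42 treated UMIs there, a ratio with a counting interval from 33.4-fold upwards. Fdft1, which makes squalene, had 94 and 1 UMIs in the same cells, so that Fdps, Fdft1 and Sqle, which act in sequence, all had few UMIs in the treated library.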
